A study of Homo sapiens with 33 samples.

Results

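The transcription factor p53 is held at a low level by the ubiquitin ligase MDM2 and accumulates when DNA is damaged or growth signals are disturbed. It binds DNA as a tetramer at response elements made of a pair of decamers and switches on genes of cell cycle arrest, DNA repair, cell death and metabolism, among them MDM2 itself, which closes a feedback loop. Malignant pleural mesothelioma (MPM) is a tumour of the mesothelial lining of the lung, and palbociclib, an inhibitor of CDK4 and CDK6, arrests cells through the retinoblastoma protein pRb.

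The levels of 35 p53 target genes were followed in 33 RNA-seq libraries of 6 established cell lines. The members were the rows of a fixed list of gene symbols, 35 of the 58302 genes of the expression matrix, and all 35 passed the filter of 100 CP20M in at least 1 library, as 17803 genes did. The list of members was chosen with earlier results of these data known. CP20M, counts per 20000000 reads, is the authors' library-size scaled read count of a gene. It is not divided by gene length, so levels are compared here between libraries for each gene and not between genes. By their known roles the members fall into 4 genes of p53 feedback, 6 of growth arrest and stress, 5 of DNA repair, 11 of cell death and 9 of metabolism, autophagy and membrane functions.

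The MPM lines H2052, H28, MSTO-211H and H2452 are sensitive to palbociclib. The MPM line MPP89, in which RB1 is mutated, and MeT-5A, mesothelial cells that SV40 rendered immortal, are resistant. Cells received 0.1% DMSO or 1 µM palbociclib over 9 or 10 days, in 2 pairs of DMSO and palbociclib libraries for H2052 and for MPP89, 3 pairs each for H28, MSTO-211H and H2452, and 1 pair for MeT-5A, which also has 1 untreated library. For each sensitive line 1 further library came from palbociclib-treated cells that were rinsed and left without drug for 48 h (washout). For the basal levels, H2452, MPP89 and MeT-5A (the compared lines) were each set against H2052, H28 and MSTO-211H (the reference lines), a split taken from the study's table of cell lines and not from the levels of these genes. The lines are of different origin and are not edited copies of 1 line, so a difference between them cannot be tied to a single feature. In MPP89 and MeT-5A, any such difference and those of inactive pRb and resistance cannot be told apart.

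The 43 RefSeq promoter windows of 27 members (GRCh38.p14, 250 bases before to 50 after an annotated start) were searched for the p53 decamer consensus, whose letters read the same on both strands. The decamer was in a window of 7 members, which is 25.9% of the 27, and in that of 8.06% of all 27305 genes with a window (16.3% of the members' windows and 6.63% of all 35116). A match describes the letters only and says nothing of binding. The matches are shown, since the genes that hold them behaved unlike one another in these lines. Each stretch runs 5′ to 3′ on the gene's strand, with the decamers in capitals.
DDB2, chr11:47214904-47215003, plus strand: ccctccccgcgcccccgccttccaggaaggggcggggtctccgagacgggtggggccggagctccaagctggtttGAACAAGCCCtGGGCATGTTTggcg
FDXR, chr17:74872965-74873064, minus strand: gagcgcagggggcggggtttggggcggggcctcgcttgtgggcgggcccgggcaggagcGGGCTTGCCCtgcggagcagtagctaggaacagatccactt
AEN, chr15:88621261-88621360, plus strand: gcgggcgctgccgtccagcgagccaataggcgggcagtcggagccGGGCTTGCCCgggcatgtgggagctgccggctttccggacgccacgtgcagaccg
FAS, chr10:88991264-88991363, plus strand: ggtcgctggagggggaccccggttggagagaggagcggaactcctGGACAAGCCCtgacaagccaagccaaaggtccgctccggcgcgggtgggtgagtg
SESN1, chr6:109008983-109009082, minus strand: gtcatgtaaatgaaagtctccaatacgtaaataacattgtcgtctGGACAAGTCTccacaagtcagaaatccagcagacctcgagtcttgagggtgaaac
PLK2, chr5:58460164-58460263, minus strand: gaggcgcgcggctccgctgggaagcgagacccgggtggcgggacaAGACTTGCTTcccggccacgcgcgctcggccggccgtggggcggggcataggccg
RPS27L, chr15:63157482-63157581, minus strand: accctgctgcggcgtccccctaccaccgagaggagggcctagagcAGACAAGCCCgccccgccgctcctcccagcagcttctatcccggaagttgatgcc
DDB2 alone held 2 decamers, separated by a single base. In the control libraries described below, the mean levels of DDB2, FAS and AEN were lower in each compared line than in each reference line, although single libraries overlapped. The mean RPS27L level of H2452 was the highest of the 6 lines.

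Each column of the matrix added up to between 20007662 and 20021400, so depth was not visible in the totals. In 22 libraries it could be estimated from skipped whole numbers, at 12800000 to 19900000 reads (median 16900000), where 1 read was worth up to 1.57 CP20M, and this covers counting only. Vimentin (VIM), expressed by mesenchymal and mesothelial cells, was at 11402 CP20M or more in every library and the T cell gene CD3E was listed at 0 in all 33, but mesothelial markers were uneven: MSLN was at 1 to 9 CP20M in the H28 controls, and WT1 at 0 and 2 in the MeT-5A controls. Of a list of 7 mesothelial markers, 6 were called higher in H2452 than in the reference lines by the rule given below and 0 lower, against 3 higher and 3 lower in MPP89 and 2 and 4 in MeT-5A. The summed level of the 7 in the controls was 67619 to 73438 CP20M in H2452, 24908 to 32755 in MPP89 and 12485 to 16469 in MeT-5A, with 34605 to 70086 in the reference lines. VIM made up most of each sum (58816 to 63804 in H2452), so the sums say little of the other markers. The 6 calls in H2452 compare means on the log scale, and some reference lines lacked a marker, as MSTO-211H did KRT19 (5 to 7 CP20M). H2052 was above H2452 for MSLN (3513 and 4999 against 816 to 1223) and KRT19 (20856 and 26295 against 3334 to 12352). It was below H2452 for UPK3B, CALB2 and VIM. Of 5 leukocyte and endothelial markers the filter passed 2, and both were called higher in H2452, CD68 at 1102 to 1232 CP20M and PECAM1 at 12 to 120. In MPP89 0 of the 2 were called and in MeT-5A CD68 was lower, and the summed level of the 5 was 1126 to 1382 in H2452 and 133 to 1224 in the reference lines. The part of such line identity in the differences between lines was not tested. Nothing in the labels says which replicates came from separate cultures, beyond the pairing of DMSO and palbociclib within an experiment, and p-values measure the spread between these libraries.

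Most members were lower in the control libraries of each compared line. A member was called where the limma FDR was under 0.05 (Benjamini-Hochberg adjustment) and the fold above 1.5. These calls compare libraries of single lines and do not cover the differences between lines. In H2452, 22 of 35 members were lower than in the reference lines and 3 were higher, with a background of 25.9% of all 17803 genes lower and 20.1% higher. In MPP89, 19 were lower and 4 higher (background 16.3% and 26.6%), and in MeT-5A 18 were lower and 4 higher (background 16.9% and 31.8%). The median log2 difference of the members was -1.39 in H2452, -1.03 in MPP89 and -0.66 in MeT-5A, while that of all genes was -0.05, 0.10 and 0.21. The scaling sets part of this balance. With median-of-ratios scaling MeT-5A had 22 members lower and 1 higher (24.4% and 22.3% of all genes). With upper-quartile scaling the counts were 21 and 5 in H2452 (21.5% and 26.3% of all genes), 24 and 3 in MPP89 (30.7% and 17.1%) and 23 and 1 in MeT-5A (27.1% and 20%). Across the 3 contrasts, which share the reference lines, 12 members were called lower in all 3, 8 in 2, 7 in 1 and 8 in none. The same count over all genes was not made, so it does not set the members apart.

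With lines as the units (3 against 3), no member and no other gene was called (0 of 17803), and 13 members and 818 genes (4.59%) had an unadjusted p under 0.05 in limma. All 13 were lower in the compared lines, where the background in that direction was 1.85%. In 11 members each compared line was lower than each reference line in mean level, against 3.88% of all genes, and in none was each higher, against 6.03%. These 11 were CCNG1, ZMAT3, GDF15, DDB2, FAS, TNFRSF10B, EDA2R, PHLDA3, AEN, CYFIP2 and TRIAP1. An exact permutation test over the 20 ways to choose 3 of 6 lines gave a two-sided p of 0.1 for each of them, the smallest that this design allows. In 7 of them (CCNG1, ZMAT3, GDF15, TNFRSF10B, EDA2R, PHLDA3 and CYFIP2) every compared library was below every reference library, against 1.21% of all genes.

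**Figure D1:**
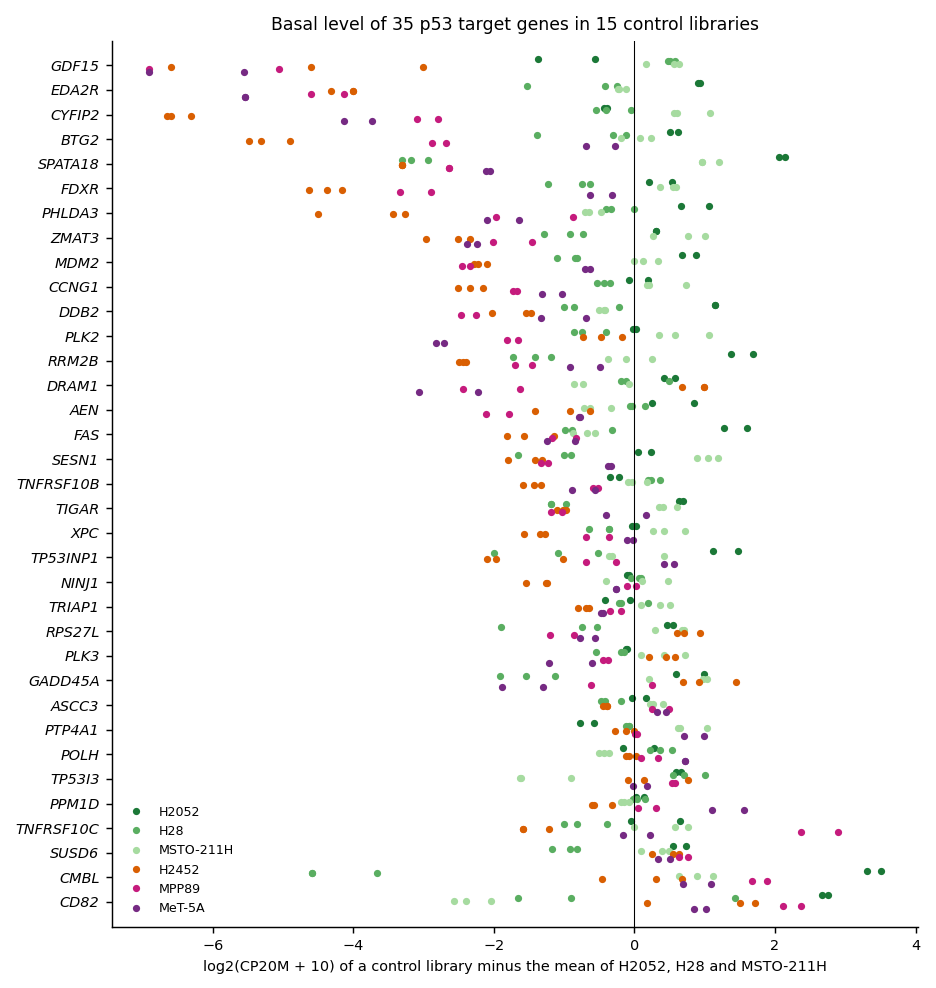
Level of each of the 35 members in the 15 control libraries (x axis, log2(CP20M + 10) minus the mean of the 3 reference lines; y axis, members ordered by the difference between the means of compared and reference lines; colours, lines; 1 point per library). Points of H2452, MPP89 and MeT-5A lie to the left for most genes, with GDF15, EDA2R and CYFIP2 furthest, and on both sides of the reference lines at the bottom, down to CD82.

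Among the feedback genes, MDM2 was at 15934 and 13871 CP20M in H2052, at 4049, 4931 and 4839 in H28 and at 9465, 11020 and 8685 in MSTO-211H. It was at 1852, 1788 and 2024 in H2452 and at 1574 and 1716 in MPP89, below every reference library. In MeT-5A it was at 5358 and 5628, above H28, so that the 2 sets of lines overlapped. The log2 difference from the reference lines was -2.20 ± 0.10 in H2452, -2.40 ± 0.12 in MPP89 and -0.66 ± 0.12 in MeT-5A (limma, adjusted p = 7.84e-10, 1.89e-09 and 0.000257). CCNG1, which encodes cyclin G1, was 5.06-fold lower in H2452, 3.25-fold in MPP89 and 2.25-fold in MeT-5A. The RNA-binding protein gene ZMAT3 was at 3433 and 3440 in H2052, at 1131, 1477 and 1681 in H28 and at 4731, 5589 and 3354 in MSTO-211H, and at 480, 544 and 349 in H2452, 685 and 1006 in MPP89 and 528 and 580 in MeT-5A. No compared library reached the lowest reference library, and ZMAT3 was 6.08-fold lower in H2452, 3.33-fold in MPP89 and 4.97-fold in MeT-5A. PPM1D, which encodes the phosphatase WIP1 that switches the response off, went the other way in MeT-5A, with 1238 and 1710 CP20M against 501 to 634 in the reference lines (2.52-fold higher).

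Among the genes of growth arrest and stress, GDF15, a secreted stress cytokine, had the largest mean log2 difference between the 2 sets of lines. The reference lines were at 1339 and 2348 CP20M in H2052, at 4825, 5207 and 4938 in H28 and at 3891, 5143 and 5405 in MSTO-211H. The compared lines were at 133, 26 and 423 in H2452, 95 and 19 in MPP89 and 64 and 19 in MeT-5A. All 7 compared libraries were below the lowest reference one, although the 3 libraries of H2452 differed among themselves on the log scale by more than those of any reference line. On the log2(CP20M + 10) scale, which understates differences of low values, GDF15 was -4.74 ± 0.58 in H2452, -5.98 ± 0.68 in MPP89 and -6.24 ± 0.68 in MeT-5A (limma, adjusted p = 9.19e-06, 6.55e-06 and 4.22e-06). With lines as units the difference was -5.65 ± 0.59 (limma, adjusted p = 0.0781). BTG2, an antiproliferative cofactor of mRNA deadenylation, was at 1093 and 1007 in H2052, at 263, 649 and 569 in H28 and at 745, 834 and 616 in MSTO-211H. It was at 6, 14 and 8 in H2452 and 87 and 102 in MPP89, but at 433 and 580 in MeT-5A. The MeT-5A libraries thus lay among those of H28, while H2452 was 37.6-fold and MPP89 6.87-fold lower than the reference lines. At the low levels of H2452 the pseudocount sets the size, and the fold was 72 with a pseudocount of 1 and 12.8 with 50.

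The other growth arrest genes did not share that split. PLK2, a polo-like kinase, was at 2772 and 2547 CP20M in MeT-5A and 5755 and 5141 in MPP89, below all reference libraries, which ran from 10034 to 37957. H2452 was inside that range at 13103, 10970 and 16018. GADD45A was higher in H2452 (2439, 2091 and 3530 CP20M; 2.02-fold) and lower in MeT-5A (516 and 343; 3.02-fold), while the reference lines ran from 336 in H28 to 2657 in MSTO-211H. PLK3 was lower in MeT-5A (1.87-fold) and PTP4A1, a phosphatase gene, higher there (1.80-fold), a call that both other scalings removed.

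Of the 5 DNA repair genes, DDB2, which recognises damage in nucleotide excision repair, was lower in each compared line. It was at 2847 and 2835 CP20M in H2052, at 697, 632 and 1098 in H28 and at 950, 897 and 945 in MSTO-211H, at 452, 430 and 306 in H2452, 222 and 259 in MPP89 and 785 and 504 in MeT-5A. Only the untreated MeT-5A library reached into the range of H28. The fold was 3.21 lower in H2452, 5.15 in MPP89 and 2.01 in MeT-5A. RRM2B, the p53-inducible subunit of ribonucleotide reductase, was 5.44-fold, 2.99-fold and 1.63-fold lower, though H28 (605 to 883) overlapped MPP89 (618 and 733) and was below MeT-5A (1072 and 1438), whose call was lost without the untreated library. XPC, the partner of DDB2 in damage recognition, was called lower in H2452 (2.63-fold), and its 1.44-fold lower level in MPP89 (limma, adjusted p = 0.00511) missed the fold threshold. POLH, the translesion polymerase eta, was called higher in MeT-5A (1.65-fold), a call that both other scalings removed, and the helicase gene ASCC3 was called in no contrast.

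Among the 11 genes of cell death, EDA2R, a receptor of ectodysplasin A2, and CYFIP2, a subunit of the WAVE complex, had the largest gaps. EDA2R was at 1065 and 1040 CP20M in H2052, at 184, 409 and 464 in H28 and at 468, 471 and 506 in MSTO-211H, but at 18, 25 and 25 in H2452, 22 and 13 in MPP89 and 2 and 2 in MeT-5A. CYFIP2 was at 1926 and 1995 in H2052, at 1970, 2528 and 1781 in H28 and at 3869, 5510 and 3993 in MSTO-211H, but at 16, 17 and 23 in H2452, 296 and 369 in MPP89 and 140 and 186 in MeT-5A. Neither gene had a compared library near the reference range. CYFIP2 was 92.1-fold lower in H2452, 7.71-fold in MPP89 and 15.3-fold in MeT-5A, and EDA2R 17.3-fold in H2452 and 20.7-fold in MPP89. At such low levels the size depends on the pseudocount: with 1 and with 50 in place of 10 the CYFIP2 fold in H2452 was 135 and 38.9, that of EDA2R was 23.5 and 8.36 in H2452 and 30.7 and 9.01 in MPP89, and in MeT-5A, where EDA2R was at the level of a few reads, it was 183 and 11.7. PHLDA3, which restrains the kinase AKT, was at 1263 to 4312 CP20M over the 8 reference libraries, 205, 81 and 182 in H2452, 1116 and 517 in MPP89 and 656 and 472 in MeT-5A. The gap was smallest for the first MPP89 library, and without MPP89 DMSO replicate 2 the MPP89 call for PHLDA3 was lost.

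**Figure D2:**
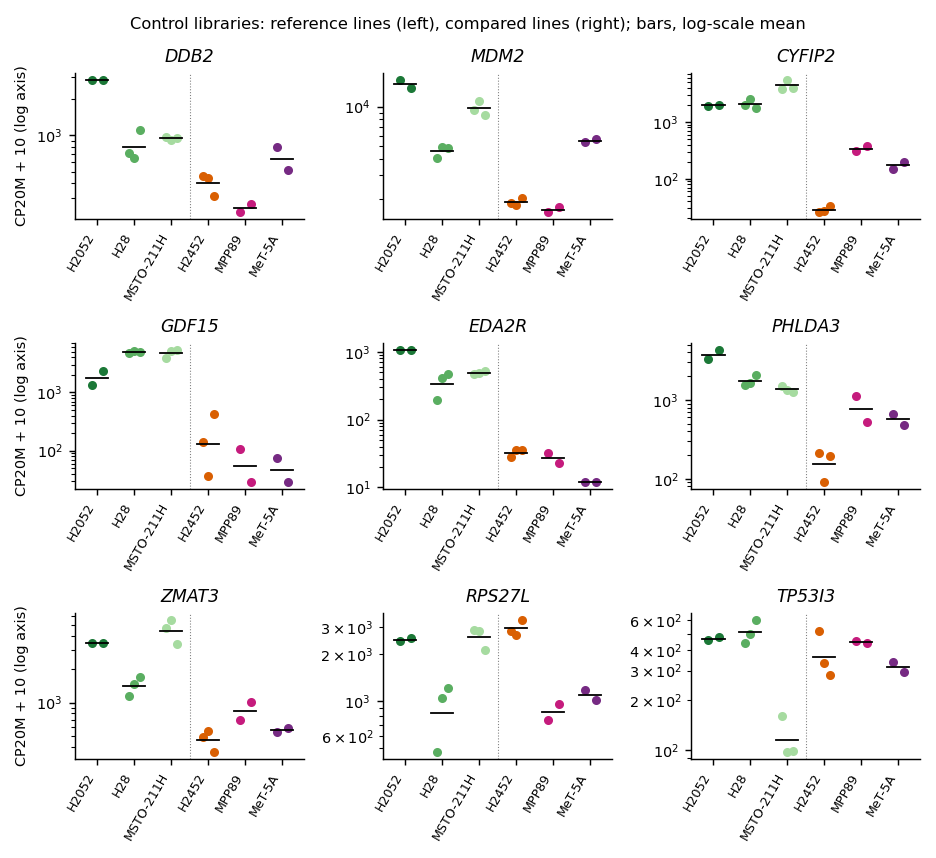
Level of 9 members in the control libraries of each line (y axis, CP20M + 10 on a log axis; x axis, lines, with the 3 reference lines left of the dotted line; points, libraries; bars, mean on the log scale). CYFIP2, GDF15, EDA2R, PHLDA3 and ZMAT3 do not overlap between the sides, MDM2 and DDB2 overlap through MeT-5A, and RPS27L and TP53I3 do not follow the split.

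The death receptors showed smaller differences. FAS was 2.85-fold lower in H2452, 2-fold in MPP89 and 2.07-fold in MeT-5A, against reference lines in which H2052 (1277 and 1009 CP20M) stood well above H28 and MSTO-211H (204 to 329). The FAS levels of MPP89 (178 and 228) and MeT-5A (226 and 168) overlapped those of H28 and MSTO-211H. TNFRSF10B, the TRAIL receptor DR5, was at 3083 to 5019 CP20M in the reference libraries and at 1295, 1441 and 1548 in H2452, 2594 and 2721 in MPP89 and 2102 and 2647 in MeT-5A. These did not overlap, but the call was made only in H2452 (2.73-fold) and MeT-5A (1.65-fold, lost without the untreated library). TNFRSF10C, a decoy receptor without a death domain, was higher in MPP89, at 145 and 215 CP20M against 5 to 41 in the reference lines (6.20-fold). It was at 3, 0 and 0 in H2452, where the call of a lower level was lost with a pseudocount of 50.

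Of the remaining death genes, the nuclease gene AEN was lower in all 3 compared lines by 1.99-fold, 3.87-fold and 1.72-fold, in the order H2452, MPP89, MeT-5A. Its level in H2452 DMSO replicate 3 (997 CP20M) reached into the range of MSTO-211H (941 to 1237). TP53INP1 (3.24-fold), TRIAP1 (1.64-fold) and the membrane rupture gene NINJ1 (2.56-fold) were called lower in H2452 and in no other contrast of controls, and the TRIAP1 call was lost with upper-quartile scaling. For TP53INP1, H28 (102, 303 and 201 CP20M) overlapped H2452 (104, 211 and 95). RPS27L, which encodes a relative of ribosomal protein S27, was higher in H2452 (2840, 2653 and 3333 CP20M, 1.67-fold) and lower in MPP89 (751 and 958, 2.05-fold) and MeT-5A (1175 and 1013, 1.60-fold). H28, with 463, 1038 and 1200, was as low as these. The RPS27L calls were the least stable: that of H2452 was lost without its DMSO replicate 3, that of MPP89 without its DMSO replicate 1, and that of MeT-5A in 8 of its alternatives, among them without either of its own libraries.

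In the metabolic group, FDXR, a mitochondrial ferredoxin reductase, was at 1508 and 1886 CP20M in H2052, at 547, 774 and 832 in H28 and at 1672, 1965 and 1897 in MSTO-211H. H2452 had 53, 43 and 63 (21-fold lower), MPP89 166 and 119 (8.70-fold lower), and MeT-5A 1037 and 833, within the range of the reference lines. SESN1, an inhibitor of mTORC1 signalling, was also called lower in H2452 (2.85-fold) and MPP89 (2.43-fold) and not in MeT-5A. Its levels in H28 (129, 210 and 226 CP20M) overlapped those of H2452 (155, 167 and 116) and MPP89 (165 and 178). TIGAR, which lowers glycolytic flux, was called lower in H2452 and MPP89 as well (2.04-fold and 2.16-fold). Here too H28 (210 to 245 CP20M) was as low as MPP89 (210 and 234) and H2452 (222 to 245). SPATA18, a gene of mitochondrial quality control, was listed at 0 in all 7 libraries of H2452 and was at 0 to 3 in the H28 controls, whereas H2052 (403 and 430) and MSTO-211H (220, 184 and 184) expressed it.

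DRAM1, a lysosomal modulator of autophagy, was higher in H2452 (3799, 4714 and 4738 CP20M; 1.85-fold) and lower in MPP89 (764 and 431; 4.09-fold) and MeT-5A (502 and 275; 6.25-fold), with 1305 to 3549 in the reference lines. CD82, a tetraspanin gene, and SUSD6 were called higher in MPP89 (4.74-fold and 1.62-fold). The CD82 call was lost without MPP89 DMSO replicate 1 and that of SUSD6 with upper-quartile scaling, and CD82 was at 15 to 26 CP20M in MSTO-211H and 932 and 986 in H2052. For CMBL, a hydrolase gene, the direction turned on the mean used. CMBL was at 0, 0 and 9 in H28 and 2378 and 2741 in H2052, so that on the log scale it was called higher in MPP89 and MeT-5A, whereas the mean of 821 in MPP89 and 443.5 in MeT-5A lay below that of the reference lines, 1000 CP20M. The MeT-5A call for CMBL was also lost with both other scalings, with a pseudocount of 50 and without the MeT-5A DMSO library. TP53I3, which encodes the quinone oxidoreductase PIG3, was called in no contrast. Over all members H2452 was the lowest of the 6 lines for 18 of 35, against 20.9% of all genes, and the highest line was H2052 for 13 and MSTO-211H for 10, against 13.1% and 16.9% of all genes.

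Other genes of the pathway were taken from a list of 30 further p53 targets, of which 27 were tested. This list was chosen with earlier results of these data known, so it is not an independent set. In H2452 12 were lower (44.4%) and 3 higher (11.1%), beside 25.9% and 20.1% of all genes. In MPP89 the counts were 9 (33.3%) and 6 (22.2%), beside 16.3% and 26.6%, and in MeT-5A 10 (37%) and 5 (18.5%), beside 16.9% and 31.8%. The CDK inhibitor gene CDKN1A (p21) was at 5953 and 6991 CP20M in H2052, at 4222, 5939 and 8117 in H28 and at 9192, 9144 and 8314 in MSTO-211H. It was at 142, 112 and 169 in H2452, 532 and 381 in MPP89 and 2347 and 2518 in MeT-5A, with no overlap. BAX, a pore-forming death effector, was lower in H2452 and MPP89 by 1.83 and 0.95 on the log2 scale (limma, adjusted p = 6.74e-08 and 0.000164), while its -0.32 in MeT-5A did not pass (limma, adjusted p = 0.0907). MDM4, the MDM2 relative that holds p53 inactive, was called in none of these basal contrasts.

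Few members changed with palbociclib in the reference lines. Over the 8 pairs of the reference lines 3 members fell (PLK2, DDB2 and FDXR) and 4 rose (TIGAR, DRAM1, CD82 and SUSD6), beside 10.1% of all genes that fell and 5.63% that rose. The median log2 change of the members was -0.08 and that of all genes -0.12. The split depended on scaling, since median-of-ratios and upper-quartile scaling each left 1 member lower (DDB2) and 5 higher, beside 5.32% and 9.88% of all genes with the former and 5.8% and 9.25% with the latter. The same 7 members were called over all 11 pairs of sensitive lines, which include those 8 pairs (background 9.37% lower, 5.58% higher); median-of-ratios scaling gave 2 lower and 9 higher there (5.16% and 9.85% of all genes), and upper-quartile scaling 2 and 8 (5.5% and 9.33%).

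The clearest rise was that of DRAM1. The pairs of DMSO and palbociclib libraries were at 3170 and 8702, and 3549 and 9927 CP20M in H2052. In H28 they were at 2073 and 5682, 3360 and 6485, and 2195 and 4550. The MSTO-211H pairs were at 1431 and 2865, 2242 and 4460, and 1305 and 4608. DRAM1 was higher with palbociclib in 8 of 8 pairs, by 1.27 ± 0.10 on the log2 scale (limma, adjusted p = 4.8e-05). SUSD6, a membrane protein gene, rose in 8 of 8 pairs by 1.01 ± 0.11 (limma, adjusted p = 0.000132), from 137 to 540 CP20M in DMSO to 324 to 1026. TIGAR rose by 0.70 ± 0.16 (limma, adjusted p = 0.00701), and this came from H28 (210, 245 and 210 to 434, 467 and 463) and MSTO-211H (749, 625 and 649 to 1328, 1180 and 1416). In H2052 TIGAR was at 797 and 766 in DMSO and 767 and 665 with palbociclib.

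CD82 rose by 1.56 ± 0.47 (limma, adjusted p = 0.0238), in 7 of 8 pairs, with very unequal sizes. In MSTO-211H it went from 18, 15 and 26 CP20M to 420, 84 and 567. In H2052 it went from 932 and 986 to 1816 and 1752, and in H28 from 69, 37 and 388 to 111, 60 and 308. The call was lost without MSTO-211H replicate 2 or without its replicate 3.

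DDB2 was lower with palbociclib in 8 of 8 pairs, by -0.79 ± 0.13 (limma, adjusted p = 0.00147). It went from 2847 and 2835 CP20M to 1195 and 985 in H2052, from 697, 632 and 1098 to 474, 556 and 580 in H28 and from 950, 897 and 945 to 634, 521 and 622 in MSTO-211H. FDXR fell by 0.74 ± 0.23 (limma, adjusted p = 0.0276), which was largest in H2052, where it went from 1508 and 1886 to 499 and 411. Its call was lost with both other scalings, without either H2052 pair and without MSTO-211H replicate 1. PLK2 fell by 0.61 ± 0.15 (limma, adjusted p = 0.00933), from 17893 and 18477 CP20M to 10131 and 9210 in H2052 and from 23182, 37957 and 27117 to 13982, 17632 and 13032 in MSTO-211H, while H28 was at 10034, 13749 and 10855 in DMSO and 10697, 12054 and 10150 with the drug. That call was lost with both other scalings, without either H2052 pair and without MSTO-211H replicate 2 or 3. With line means as units, 2 members were called, DRAM1 and SUSD6. The share of all genes called with these units is not given here, so this count does not set the members apart.

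**Figure D3:**
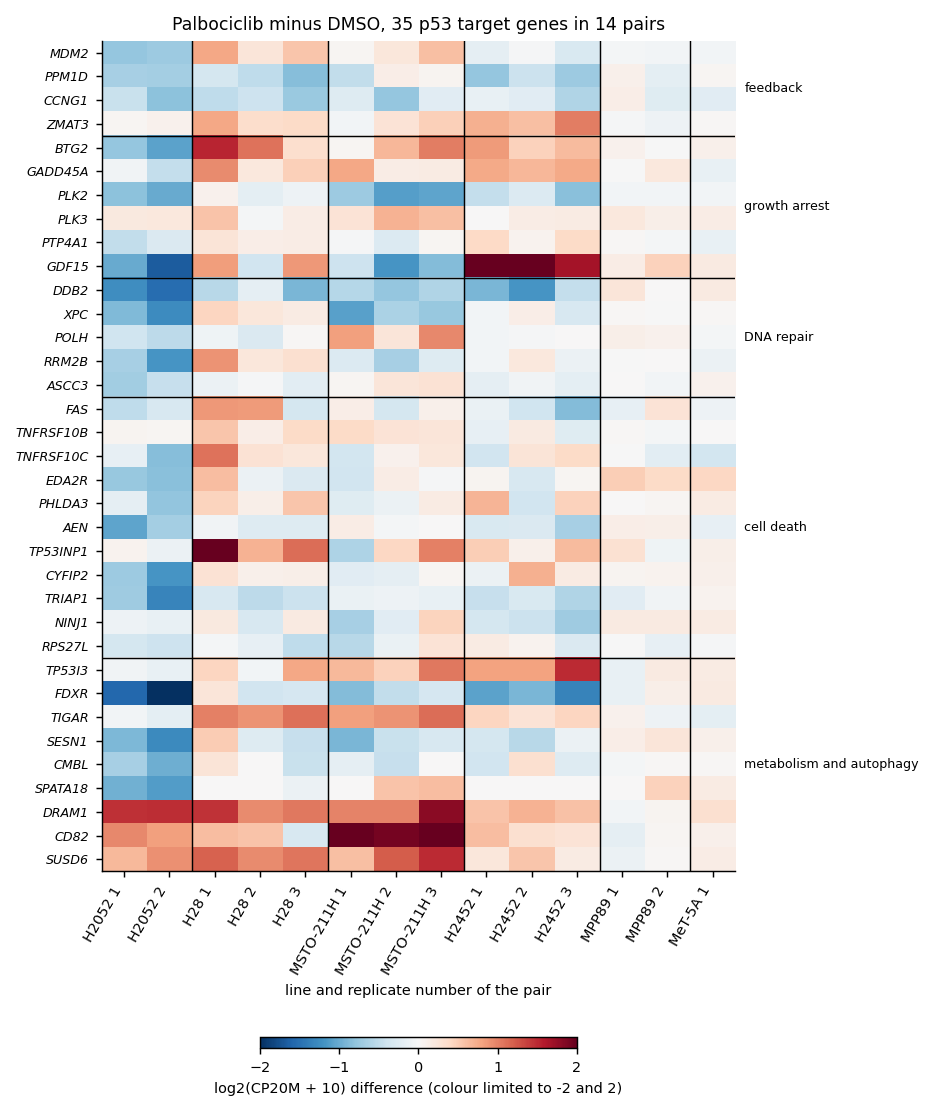
Difference between the palbociclib and DMSO library of each of the 14 pairs (columns, line and replicate; rows, 35 members by role; colour, log2(CP20M + 10) difference from -2, blue, to 2, red). DRAM1 and SUSD6 are above 0 in the 11 pairs of sensitive lines, though SUSD6 is pale in H2452 (0.221, 0.55 and 0.162). The H2052 columns are mostly blue, GDF15 is red in H2452 and blue in H2052 and MSTO-211H. The columns of MPP89 and MeT-5A are pale.

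The 4 sensitive lines did not respond alike. A limma F test of the palbociclib response among them passed at an FDR of 0.05 for 21 of the 35 members, with a background of 37.1% of all genes. MDM2 was lower with palbociclib in H2052, at 9301 and 8345 CP20M against 15934 and 13871 in DMSO, and higher in H28, at 6938, 5833 and 7128 against 4049, 4931 and 4839. In MSTO-211H it was at 9751, 12875 and 13192 with the drug and 9465, 11020 and 8685 without, and in H2452 at 1639, 1756 and 1642 with it. The mean log2 changes were -0.75 ± 0.03 (SD, n = 2) in H2052, 0.53 ± 0.27 (n = 3) in H28, 0.29 ± 0.29 (n = 3) in MSTO-211H and -0.17 ± 0.14 (n = 3) in H2452 (limma F test, adjusted p = 0.00244). BTG2 showed the same opposition, with a mean log2 change of -0.92 ± 0.22 in H2052 and 0.98 ± 0.60 in H28 (limma F test, adjusted p = 0.00782).

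In H2052 28 of the 35 members were lower in both pairs, where 58.1% of all genes were, and the median change was -0.58 for the members and -0.24 for all genes. With median-of-ratios scaling 22 members and 34.8% of all genes were lower in both pairs, and the medians were -0.31 and 0.03. The members furthest down in H2052 were FDXR (-1.87 ± 0.42, SD, n = 2), DDB2 (-1.38 ± 0.19) and GDF15 (-1.34 ± 0.46), and DRAM1 was furthest up (1.47 ± 0.02). In H28 15 members were higher in all 3 pairs and 7 lower, where 25.5% and 35.8% of all genes were, and with median-of-ratios scaling 17 and 4, where 35.9% and 26.5% of all genes were. Among those of H28, TP53INP1, a p53 cofactor in autophagy and death, went from 102, 303 and 201 to 450, 498 and 446 CP20M.

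H2452, the sensitive line outside the reference lines, had 3 members that fell (PPM1D, DDB2 and FDXR) and 6 that rose (ZMAT3, BTG2, GADD45A, GDF15, TP53I3 and DRAM1), with a background of 10.8% lower and 6.04% higher. Median-of-ratios and upper-quartile scaling each left 1 lower and 7 higher, beside 6.52% and 10.4% of all genes with the former and 6.71% and 10.2% with the latter. GDF15 went from 133, 26 and 423 CP20M to 783, 221 and 1359, by 2.27 ± 0.24 on the log2 scale (limma, adjusted p = 0.0154). TP53I3 went from 504, 322 and 272 to 888, 570 and 786 (1.04 ± 0.18, limma, adjusted p = 0.0262), ZMAT3 from 480, 544 and 349 to 788, 827 and 719, and GADD45A from 2439, 2091 and 3530 to 4119, 3303 and 5960. Each of these was higher in 3 of 3 pairs. FDXR, already low, went from 53, 43 and 63 to 20, 18 and 19, and DDB2 from 452, 430 and 306 to 235, 185 and 216. All of these calls rest on 3 pairs, and with any 1 pair left out 0 to 2 of the 9 were made.

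The difference between the responses of H2452 and of the reference lines was tested as an interaction over 11 pairs. GDF15 was the only member called (background 1.49% lower, 1.35% higher), with a response that was 2.75 ± 0.49 higher in H2452 (limma, adjusted p = 0.0113). With palbociclib GDF15 went from 1339 and 2348 to 658 and 735 CP20M in H2052, from 4825, 5207 and 4938 to 8652, 4000 and 9001 in H28, and from 3891, 5143 and 5405 to 2920, 2253 and 2964 in MSTO-211H. With palbociclib, 2 of the 3 H2452 libraries were above both H2052 libraries, and all 3 stayed under those of H28 and MSTO-211H. The call was lost without H2452 replicate 1 and with no replicate block. DRAM1, DDB2 and FDXR, which were called in both fits, had responses whose difference did not pass.

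In the resistant lines no member was called in 3 pairs, nor was any other gene (0 of 17803). At an unadjusted p under 0.05 limma found 2 of 35 members, EDA2R (0.43 ± 0.09) and NINJ1 (0.18 ± 0.04), and 1258 genes (7.07%), so the members did not exceed the background. EDA2R was at few reads there, at 22 and 13 CP20M in DMSO and 35 and 20 with palbociclib in MPP89, and at 2 and 6 in MeT-5A. Its log2 change ran from 0.166 to 0.818 under the alternatives. DRAM1 was at 764 and 431 CP20M in the DMSO libraries of MPP89 and 738 and 447 with palbociclib, and at 275 and 344 in MeT-5A. The test of the difference between sensitive and resistant lines, over 14 pairs and chosen after the values were seen, called DDB2 (-0.95 ± 0.22), DRAM1 (0.99 ± 0.23) and SUSD6 (0.80 ± 0.24; limma, adjusted p = 0.0158, 0.0151 and 0.0459), with a background of 5.62% lower and 1.13% higher. The pairs were its units, so these p-values do not cover the differences between lines.

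Among the further targets CDKN1A was not called in any palbociclib contrast, at -0.06 ± 0.17 over the reference lines (limma, adjusted p = 0.807). It went from 5953 and 6991 CP20M to 3694 and 3668 in H2052 and from 9192, 9144 and 8314 to 10564, 8253 and 11056 in MSTO-211H. BAX was lower with palbociclib in 11 of 11 pairs of sensitive lines (-0.64 ± 0.08, limma, adjusted p = 3.33e-05), as was MDM4 (-0.67 ± 0.11, limma, adjusted p = 0.00034). Of the 27 further targets tested, 4 fell (14.8%) and 1 rose (3.7%) over the reference lines, near the 10.1% and 5.63% of all genes, and in H2452 5 fell (18.5%) and 3 rose (11.1%), beside 10.8% and 6.04%. The rise over the reference lines was that of PERP, a plasma membrane protein gene (1.00 ± 0.10), and the falls were those of BAX, BBC3, PIDD1 and E2F7.

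Washout was examined in the 4 experiments that have a DMSO, a palbociclib and a washout library, 1 for each sensitive line, with the line as a block. Their DMSO and palbociclib libraries are labelled day 10, and no DMSO library is labelled for a further 48 h. Rinsing and longer culture thus cannot be told apart from withdrawal of the drug. Against palbociclib no member was called, while 0% of all genes fell and 1.4% rose. At an unadjusted p under 0.05 limma found 5 of 35 members and 2322 genes (13%), so the members were near the background. All 5 were higher after washout, and the share of all genes in that direction is not given here. The 5 were PPM1D (0.52 ± 0.15), DDB2 (0.58 ± 0.16), FAS (0.65 ± 0.24), EDA2R (0.56 ± 0.19) and AEN (0.45 ± 0.12). FAS changed most in H2452 (1.782, from 56 to 217 CP20M), against 0.005 to 0.547 in the other lines. EDA2R was low in H2452, at 26 with palbociclib and 60 after washout. The median change of the members was 0.20 and that of all genes 0.09, and with upper-quartile scaling -0.001 and -0.09. DDB2 was at 985 with palbociclib and 1808 CP20M after washout in H2052, 580 and 873 in H28, 622 and 750 in MSTO-211H and 216 and 334 in H2452. It was higher in each of the 4, and its limma adjusted p was 0.132.

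Against DMSO, PLK2 was still lower after washout and DRAM1 and SUSD6 still higher, with a background of 2.95% lower and 2.81% higher. DRAM1 was at 3549, 9927 and 7000 CP20M in DMSO, palbociclib and washout of H2052, at 2195, 4550 and 3667 in H28, 1305, 4608 and 3355 in MSTO-211H and 4738, 7143 and 6478 in H2452. In each line the washout library lay between the others. The difference from DMSO was 0.88 ± 0.17 (limma, adjusted p = 0.0139). SUSD6 was at 540, 1026 and 862 in H2052, 165, 357 and 377 in H28, 343, 985 and 774 in MSTO-211H and 502, 563 and 571 in H2452 (0.79 ± 0.19, limma, adjusted p = 0.0303). PLK2 was at 18477, 9210 and 11350 in H2052, 10855, 10150 and 10875 in H28, 27117, 13032 and 14287 in MSTO-211H and 16018, 8941 and 9433 in H2452 (-0.60 ± 0.16, limma, adjusted p = 0.0413). H28 thus took no part in the difference of PLK2. Each of the 3 calls was lost with no replicate block and when 1 line was left out, be it H2052, MSTO-211H or H28 for DRAM1 and SUSD6 and H2052, MSTO-211H or H2452 for PLK2. Median-of-ratios scaling gave 0 lower and 3 higher, beside 1.57% and 4.09% of all genes.

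**Figure D4:**
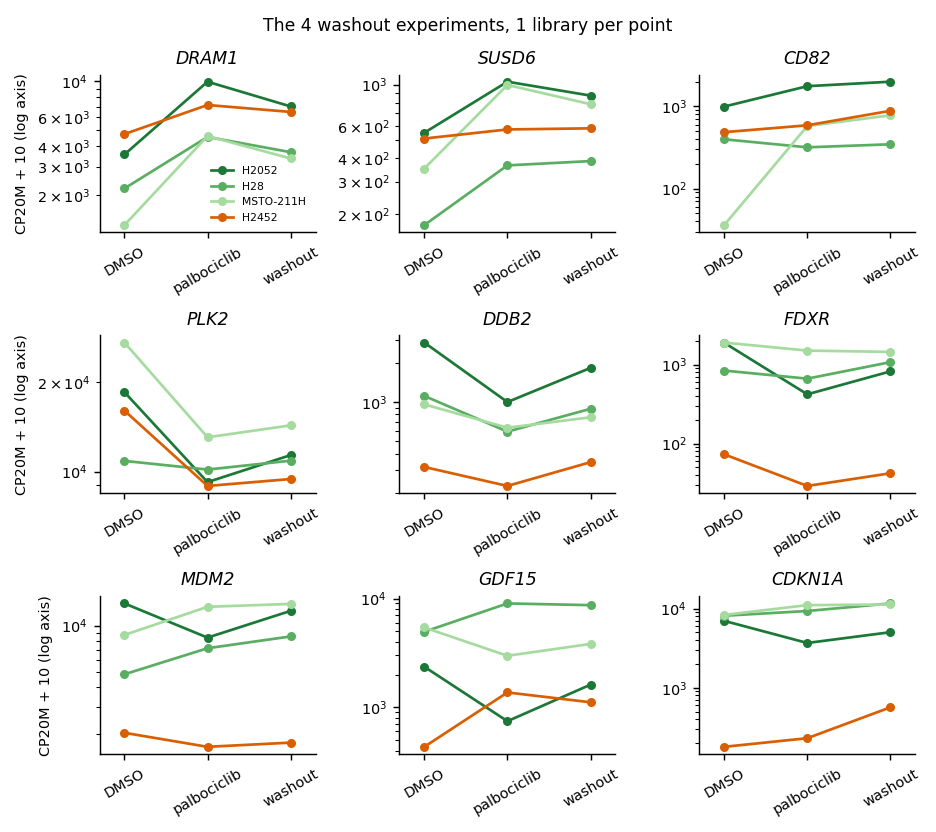
Level of 8 members and CDKN1A in the DMSO, palbociclib and washout library of the same experiment (y axis, CP20M + 10 on a log axis; colours, lines; 1 library per point, no replicates). DRAM1 is highest with palbociclib and lies between after washout in all 4 lines, DDB2 is lowest with palbociclib in all 4, and GDF15 rises with palbociclib in H28 and H2452 and drops in H2052 and MSTO-211H.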

How the data were processed

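RNA-seq libraries of 6 established cell lines were analysed from the deposited matrix, whose values are a score, CP20M: the authors trimmed reads with Trimmomatic 0.36, mapped them with STAR 2.5.3 to GRCh38, counted them per gene with HTSeq 0.9.1 (versions per the submitters' processing notes), scaled each library to 20000000 reads and rounded values up. Such values are not counts, so the authors' DESeq2 model was not used. Rounding up and scaling to the library total mean that low values are coarse and that a shift in a few abundant genes moves all others.

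Values were tested as log2(CP20M + 10) with limma 3.58.1 (eBayes with trend) in R 4.3.3, over genes that reached 100 CP20M in any of the 33 libraries, and calls needed a Benjamini-Hochberg FDR under 0.05 and a fold above 1.5. Basal contrasts used the 15 control libraries or the 6 line means. Palbociclib fits had the experiment as a block, as the study's methods pair samples within an experiment. Deviations from group means correlated between the libraries of a pair by 0.181 to 0.783 across genes. Washout fits had the line as a block. Functions were tested on simulated data. Groups come from the labels and the split of the lines from the study's cell line table. The result of 1 gene is not reported here. The members, their role groups and the lists were chosen with earlier results of these data known. Any member could be named. Values of every library are given for MDM2 and up to 6 called members with the largest change in a comparison, and for some others as examples, and list genes outside the members are named for CDKN1A, BAX, MDM4 and calls. The alternatives were other pseudocounts, filters and scalings, eBayes without trend, no replicate block, line means or libraries as units, and leaving out each library, pair or line. The contrast of sensitive and resistant lines was added afterwards. Positions are from RefSeq promoter windows of GRCh38.p14. Figures were drawn with matplotlib 3.10.9.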

Additional observations from a re-analysis of the deposited data

Results flagged for a closer look

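The response to palbociclib differed among the 4 sensitive lines for 21 members, by the limma F test over 11 pairs with Benjamini-Hochberg adjustment. That was 60% of the members, where 37.1% of all 17803 genes passed the same test. In the feedback and growth arrest groups the adjusted p was 0.00244 for MDM2, 0.034 for ZMAT3, 0.00782 for BTG2, 0.0277 for GADD45A, 0.0079 for PLK2, 0.0124 for PTP4A1 and 0.00042 for GDF15. Among the repair genes it was 0.00101 for XPC, 0.00523 for POLH, 0.00423 for RRM2B and 0.00571 for ASCC3, and among the death genes 0.00688 for AEN, 0.00719 for CYFIP2 and 0.0245 for TRIAP1. In the metabolic group the limma adjusted p was 0.0344 for TP53I3, 0.00277 for FDXR, 0.000941 for TIGAR, 0.00535 for SPATA18, 0.0409 for DRAM1, 0.00256 for CD82 and 0.0358 for SUSD6. XPC was lower with palbociclib in H2052 (-1.08 ± 0.27, SD, n = 2, log2) and MSTO-211H (-0.82 ± 0.23, n = 3) and stood at 0.28 ± 0.14 (n = 3) in H28 and -0.08 ± 0.22 (n = 3) in H2452.

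The response of GDF15 differed between H2452 and the reference lines by 2.75 on the log2 scale. The responses of the sensitive and the resistant lines differed by -0.95 for DDB2, 0.99 for DRAM1 and 0.80 for SUSD6. The resistant side of this test held 2 pairs of MPP89 and 1 of MeT-5A.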

How the results depend on the processing

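Of 1951 values of 97 member calls under the alternatives, 1833 kept direction and call, 118 kept the direction and lost the call, and 0 reversed. The calls of the added contrast of sensitive and resistant lines are not among the 97 and were not run under the alternatives. Shares of all genes called under the alternatives are given only above and only for scalings, so the counts of members here do not set them apart. Members called by comparison changed by over 1.5 times as follows, and the cause was not tested. For compared against reference lines, libraries as units gave 13 in place of 0. Line means as units gave 2 in place of 7 for the reference lines and 3 in place of 7 for the sensitive lines, where median-of-ratios scaling gave 11. The interaction of H2452 gave 2 in place of 1 with median-of-ratios and 2 with upper-quartile scaling, and washout against DMSO gave 1 in place of 3 with no filter. With no replicate block the count was 5 in place of 9 in H2452, 0 in place of 1 for its interaction and 0 in place of 3 for washout against DMSO. It stayed at 7 for the reference and 7 for the sensitive lines, and at 0 for the resistant lines and for washout against palbociclib. With 1 pair or line left out the counts were 0 to 2 in H2452, 0 to 2 for its interaction (0 without H2452 replicate 1, 2 without MSTO-211H replicate 1) and 0 to 2 for washout against DMSO. They were 5 to 9 for the reference and 5 to 9 for the sensitive lines. With 1 library left out the basal counts were 25 to 27 in H2452, 21 to 24 in MPP89 and 19 to 23 in MeT-5A. A value of a few CP20M is 1 to 3 reads, so the lowest levels (EDA2R in MeT-5A, SPATA18 in H28) have no reliable fold.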

Other observations

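After palbociclib was withdrawn, TP53I3 in H28 was at 1166 CP20M, against 1024 with the drug and 594 in DMSO of the same experiment, whereas in H2452 it was at 381, against 786 and 272. These are single libraries and were not tested.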
